A study of Mus musculus with 278 samples.

Results

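TGF-beta signalling in the mammary epithelium was followed through 10 genes: the 3 ligands Tgfb1, Tgfb2 and Tgfb3, the 3 receptors Tgfbr1, Tgfbr2 and Tgfbr3, and the 4 latent TGF-beta binding proteins Ltbp1, Ltbp2, Ltbp3 and Ltbp4. They were taken by name from 25125 genes kept in the count files, and no measured value entered the choice. The libraries were 278 single mouse mammary cells of strain FVB/NJ, each captured on a microfluidic C1 chip and sequenced on its own. They comprised 112 adult basal cells sorted as Lin-CD29hiCD24+, 43 adult luminal cells sorted as Lin-CD29loCD24+, and 123 cells of the total epithelium of mid-pregnant mice, which were not split by CD29. The labels give no agent or altered allele for any group. Cells with 50000 or more assigned reads were retained, namely 85 adult basal, 41 adult luminal and 96 pregnancy cells, 222 of 278 in all. The retained cell nearest the minimum held 53964 reads and the excluded cell nearest it 49500.

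TGF-beta is secreted in a latent form, in which its own propeptide encloses the mature growth factor. A latent binding protein ties that complex to the extracellular matrix, and integrins, thrombospondin or proteases release the active ligand. Active ligand is held on the cell surface by the co-receptor betaglycan (Tgfbr3) and signals through a complex of the type II receptor (Tgfbr2) and the type I receptor (Tgfbr1), which phosphorylates SMAD proteins. In the mammary gland TGF-beta is known as a brake on ductal growth, and during pregnancy and lactation as a regulator of alveolar survival.

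Each library was 1 cell and the labels name no animal, so each group counted as 1 sample and no difference between groups was tested. Reads of the cells of a group were summed and expressed as CPM, the reads of a gene scaled to a common total over all kept genes. A gene was called higher or lower when the sums differed at least 2-fold, also without the cell that held most of its reads in the higher group. The intervals given are exact 95% intervals that cover counting error only, and reads without molecular identifiers are not independent molecules. The share of cells with a read was counted after every cell had been thinned to 50000 reads. Stage and sort differed together between the adult and the pregnancy cells, and their parts cannot be told apart.

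The labelled lineages matched their markers in the adult. The 10 basal markers summed to 29443 CPM in adult basal and 433 CPM in adult luminal cells, and the 10 luminal markers to 1064 and 9036 CPM. Pregnancy cells were placed in a basal class of 35 cells, a luminal class of 29 cells, a mixed group of 29 cells with both sets of genes and 3 unclassed cells, from the number of the study's lineage signature genes found in each cell with members and pathway genes removed. Of the 96 pregnancy cells, 9 lay within 2 percentage points of a class threshold. The same thresholds put 76 of 85 adult basal cells in the basal class and 34 of 41 adult luminal cells in the luminal class. The luminal groups differed in makeup. The 10 mature luminal markers summed to 9089 CPM in adult luminal cells and 886 CPM in the luminal class of pregnancy. The 10 luminal progenitor markers summed to 10435 and 99322 CPM. In ratios of that class over adult luminal cells, stage and this makeup cannot be told apart. Median reads per retained cell were 378408 in adult basal, 637420 in adult luminal and 215145 in pregnancy cells.

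Some cells stood apart from their labels. Markers of a type outside the epithelium (3 or more of fibroblast, endothelial, immune, pericyte, Schwann or erythroid markers) were present in 25 of 96 pregnancy cells, in 7 of 41 adult luminal cells and in 1 of 85 adult basal cells. Of the 25, 10 were in the basal class and 5 in the luminal class. Adult luminal cell 31 and pregnancy cells 8, 51 and 65 reached 3 markers by the Schwann list only. The median cell held 10.7 CPM of that list in adult luminal and 28.7 CPM in luminal-class cells. Such a mark does not settle that a cell is of another type. Marked cells of every type held 17.7% of the reads in the adult luminal group and 1.44% in the adult basal group. Their share was 26.7% in the basal class and 14.5% in the luminal class of pregnancy. Ratios given without marked cells keep the classes as drawn from all cells. The 6 fibroblast markers summed to 6.36 CPM in adult basal cells, where Dpt and Lum were at 0, and to 848 CPM in adult luminal and 1044 CPM in pregnancy cells. The pregnancy cells numbered up to 55 in their titles also differed from the others: they held 8.89% of reads in milk genes against 31.4%, and 25 of 45 against 2 of 51 showed cell cycle genes. This split was drawn after the data were seen and is not a labelled batch. Values within its parts are given beside several members, and the split was not tested.

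Adult basal cells were set apart by a latent binder and a co-receptor. Ltbp2 was 199-fold higher in adult basal than in adult luminal cells and Tgfbr3 was 6.15-fold higher, while Tgfb1, Tgfbr2 and Ltbp1 were higher in luminal cells. In the basal class of pregnancy Tgfbr3 was found in all 35 cells, whereas the summed level of Ltbp2 was 39.5-fold below that of adult basal cells. The plot of the members cell by cell shows these levels, with most other members absent from most cells.

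**Figure D1:**
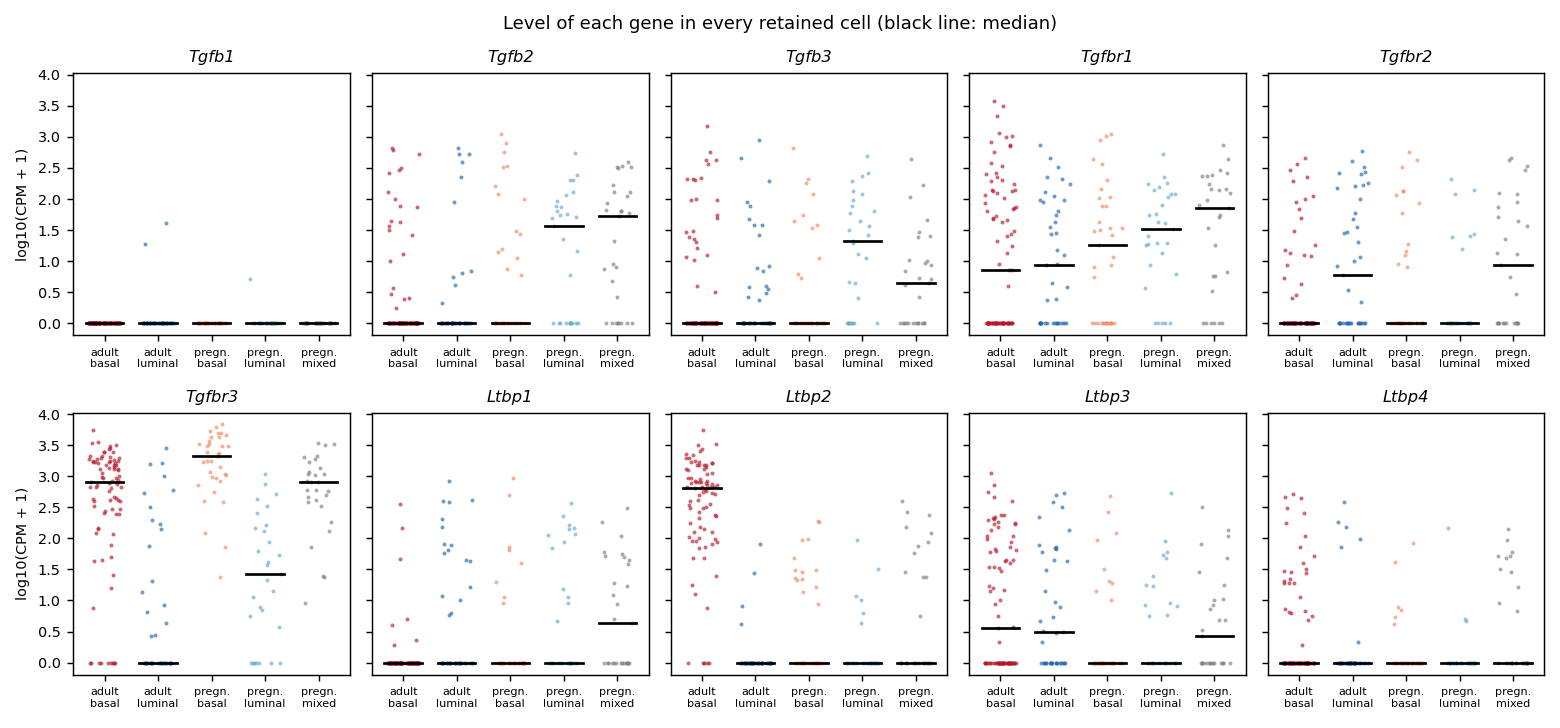
Level of each of the 10 genes in every retained cell, as CPM on a log10(CPM + 1) axis, by group, with 1 point per cell and a bar at the median. Ltbp2 is high in adult basal cells alone (median 639 CPM), and Tgfbr3 is high in adult basal cells (median 808 CPM) and in the basal class of pregnancy (median 2114 CPM).

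Among the ligands, Tgfb1 (chromosome 7, 25687002 to 25705077, plus strand, GRCm38), the ligand that immune and stromal cells make most widely, had no read in the 85 adult basal cells. A count of 0 in 85 cells allows a share of up to 3.53% of cells with a read at this depth, which is no limit on the cells that express the gene. It had 44 reads in 2 of 41 adult luminal cells, the higher at 40.7 CPM, and 1 read in the 96 pregnancy cells, which lay in the luminal class. Against a floor of 3 counts over the adult basal cells, the luminal sum was at least 21.1-fold higher. The luminal class of pregnancy was lower than adult luminal cells on 1 read against 44 (log2 ratio -3.89, interval -9.23 to -1.34), and in the 9 luminal-class cells numbered up to 55 it was not called. These levels rest on 2 luminal cells, neither of them marked for another type.

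Tgfb2 (chromosome 1, 186622787 to 186709697, minus strand) encodes the ligand that depends most on betaglycan for binding. Single adult basal cells held from 0 to 669 CPM (median 0) and adult luminal cells from 0 to 660 CPM (median 0). In pregnancy the basal class ranged from 0 to 1097 CPM (median 0), the luminal class from 0 to 543 CPM (median 36.3) and the mixed cells from 0 to 391 CPM (median 52.9). The groups overlapped throughout. At equal reads 46.9% of pregnancy cells had a read (36.6 to 57.3), against 18.8% of the basal (interval 11.2 to 28.8) and 14.6% of the luminal cells of the adult (5.57 to 29.2).

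The summed level of Tgfb2 did not separate the adult lineages, with 46.7 CPM in basal and 41.5 CPM in luminal cells, and the log2 ratio of 0.17 (interval 0.06 to 0.28) turned to -0.63 when every cell had the same weight. In the luminal class of pregnancy it was 83.2 CPM, a log2 ratio of 1.00 over adult luminal cells that was not called because it rested on 1 cell with 42.8% of the reads. It was called with TMM scaling (1.90) and in the cells numbered up to 55 (1.29). The adult luminal cells with more progenitor than mature markers, described below, held 121 CPM, above the luminal class of pregnancy. The share of cells with a read was 58.6% in that class (38.9 to 76.5), with 8 of 9 cells numbered up to 55 and 9 of 20 of the others. In the basal class the sum was 123 CPM, 52.0 CPM in cells numbered up to 55 and 219 CPM in the others, and the log2 ratio over adult basal cells was 0.16 and 2.23 in the respective parts. It was not called over the whole class, and was called in the cells numbered above 55.

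Tgfb3 (chromosome 12, 86056743 to 86079041, minus strand) encodes the ligand known in the gland for its rise at weaning. In the adult 21.2% of the basal (13.1 to 31.4) and 26.8% of the luminal cells (14.2 to 42.9) had a read. In pregnancy the shares were 20.0% in the basal class (8.44 to 36.9) and 58.6% in the luminal class (38.9 to 76.5). The latter was made up of 7 of 9 cells numbered up to 55 and 10 of 20 of the others. Single cells reached 1505 CPM in the adult basal, 894 CPM in the adult luminal, 657 CPM in the basal-class and 501 CPM in the luminal-class group, and the medians were 0, 0, 0 and 20.5 CPM. The summed levels were 64.5, 36.5, 27.0 and 66.1 CPM. None of its 4 ratios was called over all retained cells. Single cells weighed heavily, since 1 adult basal cell held 31.0% of that group's reads and 1 basal-class cell 34.6%. Between the pregnancy classes the log2 ratio of basal over luminal was -1.29, and it was called lower with TMM scaling (-1.99) and without marked cells (-1.54). Without marked cells the basal class was also called below adult basal cells (-1.81), and with TMM scaling the luminal class above adult luminal cells (1.75). Tgfb3 itself stands in the printed list of the study's lineage signatures, which were drawn from earlier published libraries of these lineages. It was left out of the genes that set the classes. That list does not hold Tgfbr3, whereas clusters drawn with the signatures name Tgfbr3 and not Tgfb3. Which of these genes the signatures held could not be told.

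Any ligand was found in 31 of 85 adult basal cells, 16 of 41 adult luminal cells, 17 of 35 basal-class and 23 of 29 luminal-class cells of pregnancy. Tgfb2 and Tgfb3 were found together in 3 of 85 adult basal and 3 of 41 adult luminal cells, in 2 of 35 basal-class cells and in 11 of 29 luminal-class cells. Counted singly, each was found in 58.6% of luminal-class cells, and Tgfb2 in 34.3% and Tgfb3 in 20.0% of basal-class cells. A ligand read was present in all 9 luminal-class cells numbered up to 55 and in 14 of the 20 numbered above 55, and in 9 of 19 and 8 of 16 cells of the basal class. The pregnancy cells also yielded more genes at equal reads than adult basal cells (medians of 3251 and 2256 genes at 50000 reads) but fewer than adult luminal cells (3451).

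The receptors were led by Tgfbr3 (chromosome 5, 107106567 to 107289629, minus strand). Single adult basal cells held from 0 to 5553 CPM (median 808) and adult luminal cells from 0 to 2851 CPM (median 0). In pregnancy the basal class held a median of 2114 CPM and up to 6815 CPM, the mixed cells a median of 809 and up to 3366 CPM, and the luminal class a median of 25.5 and up to 1104 CPM. The basal class had no cell at 0, and 23 of its 35 cells lay above the highest luminal-class cell. In the adult the ranges overlapped, with 5 of 85 basal cells above the highest luminal cell and 9 basal cells at 0.

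The share of cells with a Tgfbr3 read was 87.1% for the basal (78.0 to 93.4) and 34.1% for the luminal sort of the adult (20.1 to 50.6). In pregnancy all 35 cells of the basal class had one (90.0 to 100%), as did 89.7% of mixed (72.6 to 97.8) and 55.2% of luminal-class cells (35.7 to 73.6). The log2 ratio of adult basal over adult luminal was 2.62 (interval 2.58 to 2.66). Of the adult luminal reads, 72.3% lay in the 7 cells marked for another type, and without them the luminal level was 68.2 CPM in place of 203 CPM and the log2 ratio 4.18. Between the pregnancy classes it was 3.77 (3.69 to 3.85), a 13.6-fold difference, and from 3.07 to 4.13 over all settings tried. The basal class of pregnancy was above adult basal cells by a log2 ratio of 0.92, below the 2-fold threshold. This ratio was 1.14 without marked cells and 1.16 with the same weight for every cell, and was called higher in both. The luminal class differed from adult luminal cells by -0.23, which turned to 0.67 with TMM scaling and 1.07 without marked cells and was not called. The paper names Tgfbr3 among its basal genes and lists it in clusters drawn with its lineage signatures. Its basal direction was therefore known beforehand. As a member, Tgfbr3 did not set the classes.

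Tgfbr1 (chromosome 4, 47353222 to 47414926, plus strand), the signalling type I receptor, was found in a similar share of cells of both adult sorts: 45.9% of basal (35.0 to 57.0) and 46.3% of luminal cells (30.7 to 62.6). Its summed level was higher in basal cells, 202 against 78.1 CPM (log2 ratio 1.37, interval 1.30 to 1.44). The medians were close, 6.33 CPM in basal and 7.83 CPM in luminal cells. The difference in the sums came from an upper tail in which 7 cells of the basal sort, up to 3835 CPM, exceeded the highest luminal cell at 746 CPM. The highest, cells 90 and 95 at 3835 and 3112 CPM, were left unclassed by the class thresholds. So was cell 19 of this tail, at 1032 CPM, which was marked for immune cells. Without marked cells the log2 ratio was 1.12 and was no longer called. In pregnancy the levels were 164 CPM in the basal and 77.3 CPM in the luminal class, with 57.1% and 65.5% of cells holding a read. The basal class held 98.8 CPM in cells numbered up to 55 and 254 CPM in the others. The log2 ratio of 1.09 between the classes was not called, because 1 cell held 42.9% of the basal-class reads.

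Tgfbr2 (chromosome 9, 116087695 to 116175363, minus strand), the type II receptor that binds ligand first, ran the other way in the adult. Single adult basal cells held from 0 to 449 CPM (median 0) and adult luminal cells from 0 to 600 CPM (median 5.08). A read was found in 16.5% of basal cells (9.31 to 26.1) and 46.3% of luminal cells (30.7 to 62.6). The summed level was 28.1 CPM in basal and 77.3 CPM in luminal cells, a log2 ratio of -1.46 (-1.57 to -1.35) that ranged from -1.69 to -1.16 over the settings and was not called at -1.16, with TMM scaling. The ranges of single cells overlapped.

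In pregnancy Tgfbr2 went with marked cells. The basal class held 58.0 CPM, with 70.9% of the reads in its 10 marked cells, and the luminal class 15.7 CPM, with 68.7% in its 5 marked cells. The luminal class was below adult luminal cells (log2 ratio -2.30, and -3.71 without marked cells), though the call was lost in cells numbered up to 55 (-1.08). The basal class was above the luminal class (1.89), a call lost with TMM scaling (1.19), in cells numbered up to 55 (0.79) and without marked cells, where the ratio of 2.01 rested on 1 cell. The ratio of basal class over adult basal cells was 1.04, and -0.01 without marked cells, and was not called. Pregnancy cells numbered up to 55, which included 19 of the 25 marked cells, held 91.0 CPM and the others 16.2 CPM. The part of the marked cells in these pregnancy levels was not tested.

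Reads of both signalling receptors were found in 8 of 85 adult basal cells, 8 of 41 adult luminal cells, 8 of 35 basal-class cells and 6 of 29 luminal-class cells. All 8 adult basal cells and all 8 basal-class cells with both also held Tgfbr3, against 4 of the 8 adult luminal cells. Among all cells, Tgfbr3 was found in 87.1% of adult basal, 100% of basal-class and 34.1% of adult luminal cells. Any of the 3 receptors was found in 90.6% of adult basal, 85.4% of adult luminal, 100% of basal-class and 82.8% of luminal-class cells. At 50000 reads a cell, a receptor of low level can be missed, and without thinning both signalling receptors were found in 16 adult basal and 14 adult luminal cells.

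**Figure D2:**
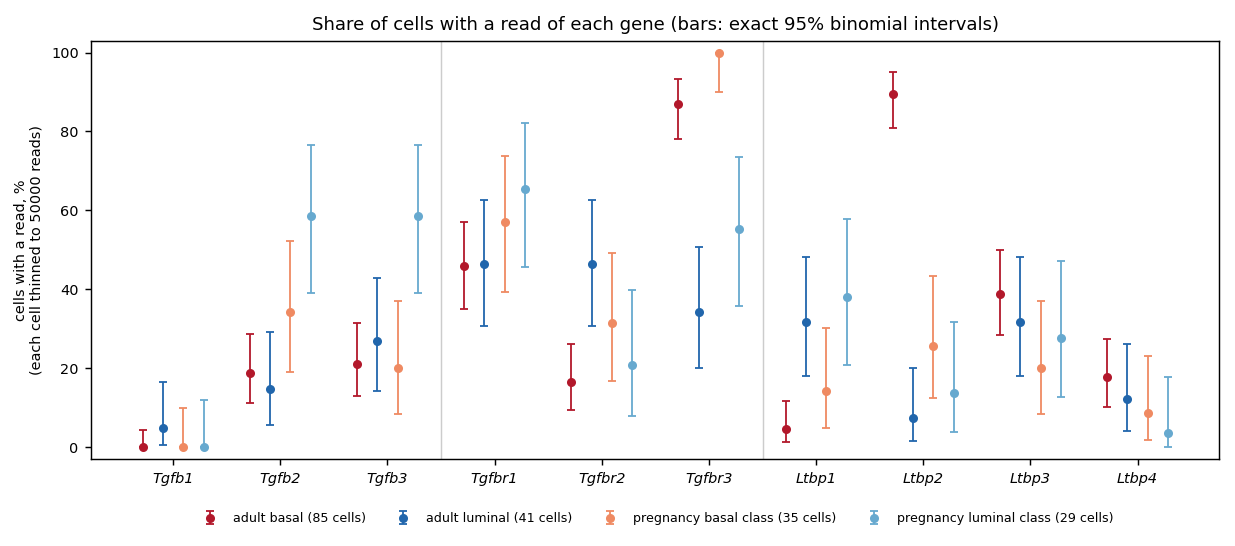
Share of cells with at least 1 read of each gene, in percent, after thinning to 50000 reads, in adult basal (85), adult luminal (41), pregnancy basal-class (35) and pregnancy luminal-class (29) cells, with exact 95% binomial intervals as bars. Ltbp2 stands at 89.4% in adult basal cells and 25.7% in the basal class of pregnancy, and Tgfbr3 at 87.1% and 100%.

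Of the latent binders, Ltbp2 (chromosome 12, 84783212 to 84876558, minus strand) is a matrix protein of elastic fibres that, unlike the other 3, does not bind the latent complex covalently. Its stretch just before the annotated start and that of Ltbp1 are shown, since these latent binders were called in opposite directions in the adult. Both are from the RefSeq promoter table (GRCm38.p6), 5′ to 3′ on the gene's strand, Ltbp2 at chr12:84876559-84876741 on the minus strand and Ltbp1 at chr17:75005279-75005479 on the plus strand. Capitals mark CAGAC (the core of the SMAD binding element) and CAGGTG (the E-box bound by Snai2) on either strand, where the other strand reads GTCTG and CACCTG.
Ltbp2: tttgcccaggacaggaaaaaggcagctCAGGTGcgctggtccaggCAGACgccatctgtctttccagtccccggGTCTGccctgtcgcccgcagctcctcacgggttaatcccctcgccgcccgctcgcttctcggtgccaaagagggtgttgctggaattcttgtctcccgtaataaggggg
Ltbp1: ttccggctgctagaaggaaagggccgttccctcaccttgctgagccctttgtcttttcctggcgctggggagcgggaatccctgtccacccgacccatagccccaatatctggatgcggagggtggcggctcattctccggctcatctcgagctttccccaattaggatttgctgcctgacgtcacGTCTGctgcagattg

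The Ltbp2 stretch of 183 bases held 2 matches to CAGAC and 1 to CAGGTG, and the Ltbp1 stretch of 201 bases 1 match to CAGAC. Among all 32851 promoter windows of 300 bases, 49.6% held CAGAC and 20.2% held CAGGTG on either strand, so such matches are common. The AP-1 motif TGANTCA was in 7.81% of windows and TATAAA in 13.6%, and neither was in these stretches. Of the 10 genes, 8 had an entry in the table. The Ltbp2 stretch also lies in an exon of D030025P21Rik on the opposite strand. The library kit does not mark strand, so reads of exons shared by Ltbp2 and that gene could not be told apart, and for no member could reads be assigned to a strand.

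Single adult basal cells held from 0 to 5571 CPM of Ltbp2 (median 639) and adult luminal cells from 0 to 81.3 CPM (median 0). Of the 85 basal cells, 71 lay above the highest luminal cell and 5 were at 0. A read was found in 89.4% of basal (80.8 to 95.0) and 7.32% of luminal cells (1.54 to 19.9). The summed levels were 769 and 3.87 CPM, a log2 ratio of 7.64 (interval 7.35 to 7.94) that lay between 7.59 and 8.16 under every setting tried. No single basal cell held more than 5.52% of the reads, and none lay in the marked basal cell.

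In pregnancy Ltbp2 was low in every class. The basal class held from 0 to 189 CPM (median 0), the luminal class from 0 to 92.6 CPM (median 0) and the mixed cells from 0 to 400 CPM (median 0). Reads were present in 37.9% of mixed cells (20.7 to 57.7), 25.7% of the basal class (12.5 to 43.3) and 13.8% of the luminal class (3.89 to 31.7). The summed level of the basal class was 19.5 CPM against 769 CPM in adult basal cells (log2 ratio -5.31, interval -5.61 to -5.02), and 60 of 85 adult basal cells exceeded the highest basal-class cell.

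This gap was present in both parts of the pregnancy cells, with 23.1 CPM in basal-class cells numbered up to 55 and 14.5 CPM in the others, and ranged from -5.73 to -3.73 over the settings. Between the pregnancy classes Ltbp2 was called higher in the basal class (log2 ratio 2.39, 1.80 to 3.03), on 98 against 31 reads. It was 0.80 in cells numbered up to 55, below the threshold, and 3.97 in the others. The luminal class and adult luminal cells were at 3.70 and 3.87 CPM, a log2 ratio of -0.06 that turned to 0.83 with TMM scaling.

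**Figure D3:**
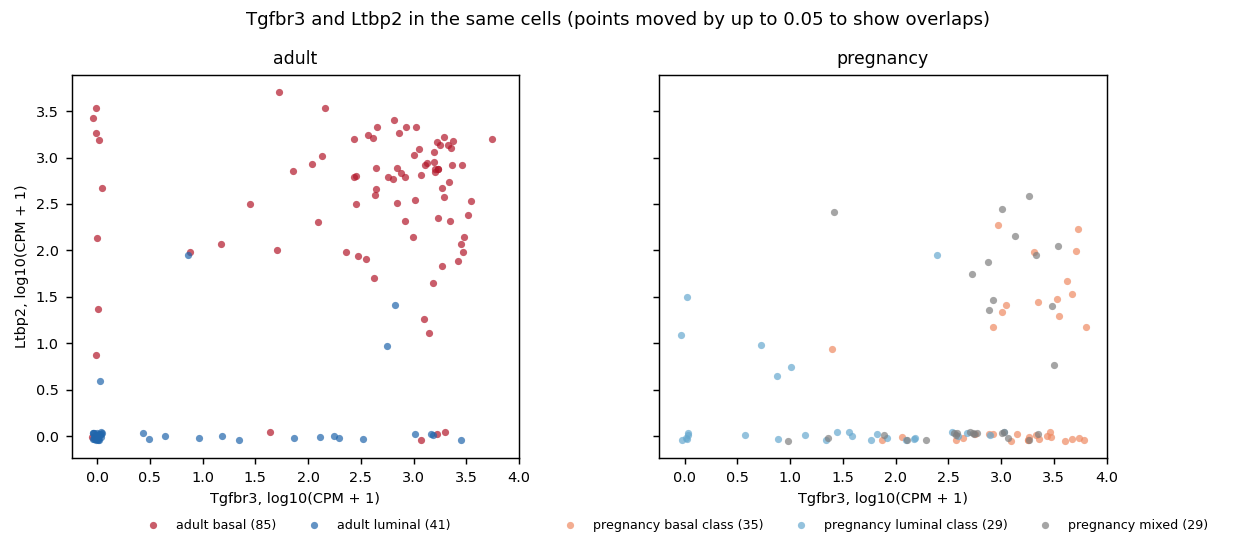
Ltbp2 against Tgfbr3 in single cells, both as log10(CPM + 1), in the adult (left) and in pregnancy (right), with points moved slightly to show overlaps. Most adult basal cells are high in both, whereas basal-class cells of pregnancy are high in Tgfbr3 and at or below 189 CPM in Ltbp2.

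Ltbp2 and Tgfbr3 were found together in 68 of 85 adult basal cells and in 9 of 35 basal-class cells of pregnancy. They occurred together in 3 of 41 adult luminal cells and in 1 of 29 luminal-class cells. The plot of the pair shows the basal class of pregnancy high in Tgfbr3 and low in Ltbp2.

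Ltbp1 (chromosome 17, 75005480 to 75392512, plus strand), a binder that couples latent ligand to fibronectin and fibrillin, was mainly luminal in the adult. Single adult basal cells held from 0 to 361 CPM and luminal cells from 0 to 842 CPM, with medians of 0. A read was found in 4.71% of basal (1.30 to 11.6) and 31.7% of luminal cells (18.1 to 48.1). The summed levels were 8.54 and 52.5 CPM, a log2 ratio of -2.62 (-2.81 to -2.44). Of the luminal reads 58.3% lay in the 7 marked cells, and without these the log2 ratio was -1.62, still called. A total of 78 of 85 basal cells and 24 of 41 luminal cells had no read even before thinning.

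Most Ltbp1 reads of the basal class of pregnancy lay in marked cells. The class held 61.1 CPM against 8.54 CPM in adult basal cells (log2 ratio 2.84, 2.61 to 3.07), but 89.3% of its reads were in these cells, and the cell with 69.5% of them held 6 of 6 fibroblast markers. Without marked cells the class was at 8.94 CPM and the log2 ratio was 0.05. In the luminal class the level was 38.8 CPM, 126 CPM in cells numbered up to 55 and 13.4 CPM in the others. The log2 ratio over adult luminal cells was -0.44, and it turned to 0.46 with TMM scaling and to 1.26 in the cells numbered up to 55. Between the classes it was 0.65, and -0.04 with TMM scaling or -1.64 without marked cells, the latter called.

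Ltbp3 (chromosome 19, 5740900 to 5758536, plus strand), known for its part in bone and teeth, was found at like shares in both adult sorts, 38.8% of basal (28.4 to 50.0) and 31.7% of luminal cells (18.1 to 48.1). It summed to 85.5 and 58.8 CPM (log2 ratio 0.54). In pregnancy both classes were lower, the basal class at 26.6 CPM (-1.68 against adult basal) and the luminal class at 21.2 CPM (-1.48 against adult luminal). Both rested on parts of the cells: the basal-class level was 6.54 CPM in cells numbered up to 55 and 53.9 CPM in the others, and the luminal-class level was 57.8 and 10.5 CPM. The basal ratio was -0.66 in the cells numbered above 55, the luminal ratio -0.03 in those numbered up to 55 and -0.58 with TMM scaling, all under the threshold, and without marked cells the luminal ratio (-1.29) was not called.

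Ltbp4 (chromosome 7, 27305140 to 27339720, minus strand), a binder of elastic tissue, held 25.2 CPM in adult basal and 22.5 CPM in adult luminal cells (log2 ratio 0.16). Of the 559 luminal reads, 558 lay in marked cells, so that the 34 other luminal cells held 1 read, whereas none of the 901 basal reads lay in a marked cell. Without marked cells the log2 ratio was 9.03 in favour of basal cells, with a counting interval of 6.55 to 14.34 that reflects this 1 read. A read was found in 17.6% of basal cells (10.2 to 27.4) and 12.2% of luminal cells (4.08 to 26.2). In pregnancy the level was 3.37 CPM in the basal class (-2.90 against adult basal, on 17 reads) and 4.42 CPM in the luminal class (-2.35 against adult luminal, on 37 reads, 36 of them in 1 marked cell). The first was not called at the 25th percentile for classes (-0.94) and the second not with TMM scaling (-1.45). Mixed cells held 12.6 CPM, and 34.5% of them had a read (17.9 to 54.3).

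Counted together, 3 of the 10 members were called higher in adult basal cells (Tgfbr1, Tgfbr3, Ltbp2) and 3 higher in luminal cells (Tgfb1, Tgfbr2, Ltbp1). Of all 15000 genes tested, 12.8% were called higher and 21.4% lower in basal cells. Against adult basal cells, the basal class of pregnancy had 1 of 9 tested members higher (Ltbp1) and 3 lower (Ltbp2, Ltbp3, Ltbp4), where 10.6% of all genes were higher and 10.3% lower. Against adult luminal cells, the luminal class of pregnancy had 0 of 10 higher and 4 lower (Tgfb1, Tgfbr2, Ltbp3, Ltbp4), where 4.53% of all genes were higher and 29.3% lower. Between the pregnancy classes, 3 of 10 were higher in the basal class (Tgfbr2, Tgfbr3, Ltbp2) and 0 lower, where 21.9% of all genes were higher and 8.41% lower.

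Several of these shares lie near those of all genes, and few genes make up each count. The median log2 ratio of the members and of all genes tested was 0.35 and -0.33 between the adult lineages, -0.29 and 0.00 for basal class over adult basal, -0.33 and -0.99 for luminal class over adult luminal, and 0.65 and 0.76 between the classes. TMM scaling moved the median log2 ratio of all genes tested by 0.30, -0.10, 0.87 and -0.71 in that order. The luminal class of pregnancy held 356489 CPM of milk gene reads against 12499 CPM in adult luminal cells. The plot of the log2 ratios sets the 10 members beside their values with TMM scaling and without marked cells.

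**Figure D4:**
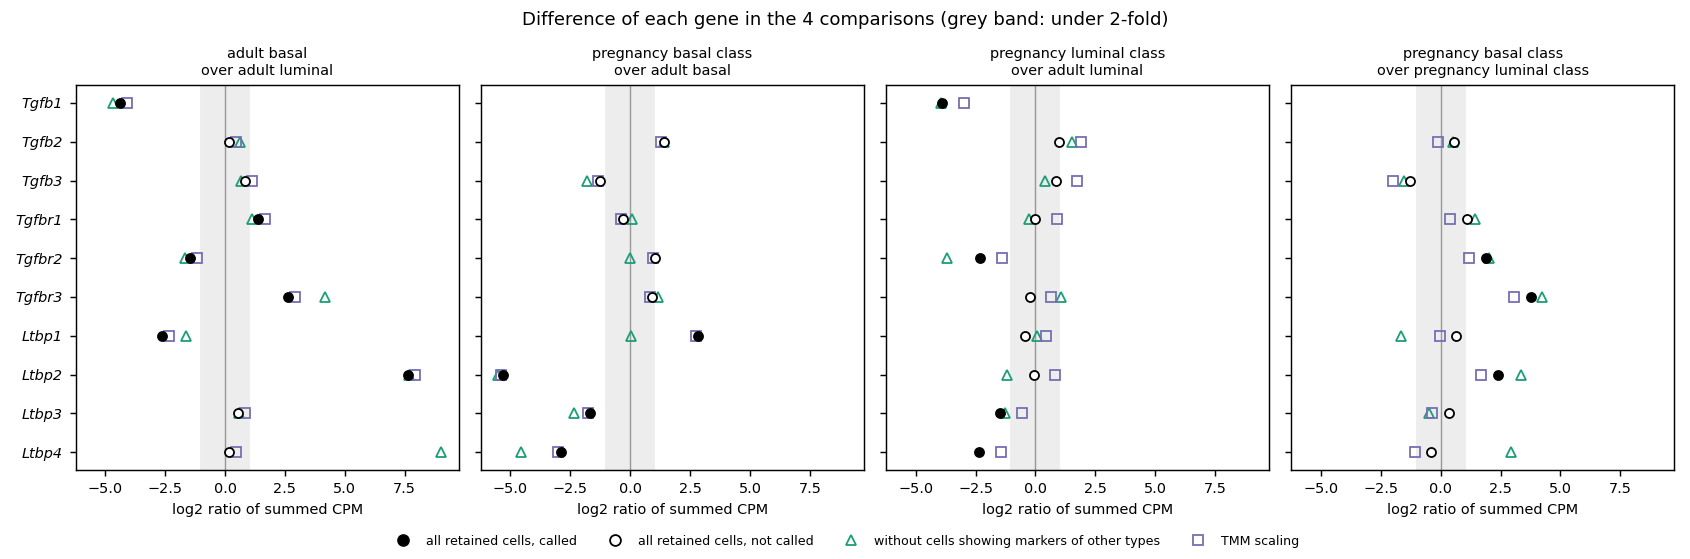
Log2 ratio of summed CPM for each of the 10 genes in the 4 comparisons, over all retained cells (circles, filled where called), without cells marked for another type (triangles) and with TMM scaling (squares), a grey band marking differences under 2-fold and genes with a sum of 0 drawn at their bound. Over all retained cells Ltbp2 lies at 7.64 between the adult lineages and at -5.31 between the basal class of pregnancy and adult basal cells, farther from 0 than any other member in those comparisons.

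Per length of transcript, the makeup of each role differed between the lineages. Among the receptors Tgfbr3 made up 83.2% of the summed reads per kilobase in adult basal cells (206 RPKM), 52.8% in adult luminal, 90.5% in the basal class and 62.9% in the luminal class. Without marked cells its share in adult luminal cells was 26.7%, behind Tgfbr2 (37.0%) and Tgfbr1 (36.3%). Among the latent binders Ltbp2 made up 84.1% in adult basal cells (116 RPKM) and 2.61% in adult luminal cells, where Ltbp3 led with 50.6%. In the basal class of pregnancy Ltbp1 led with 46.4%, and without marked cells Ltbp3 led with 45.5% and Ltbp2 followed with 36.3%. Among the ligands Tgfb3 led in adult basal cells (65.9%) and Tgfb2 in the basal class (76.5%).

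**Figure D5:**
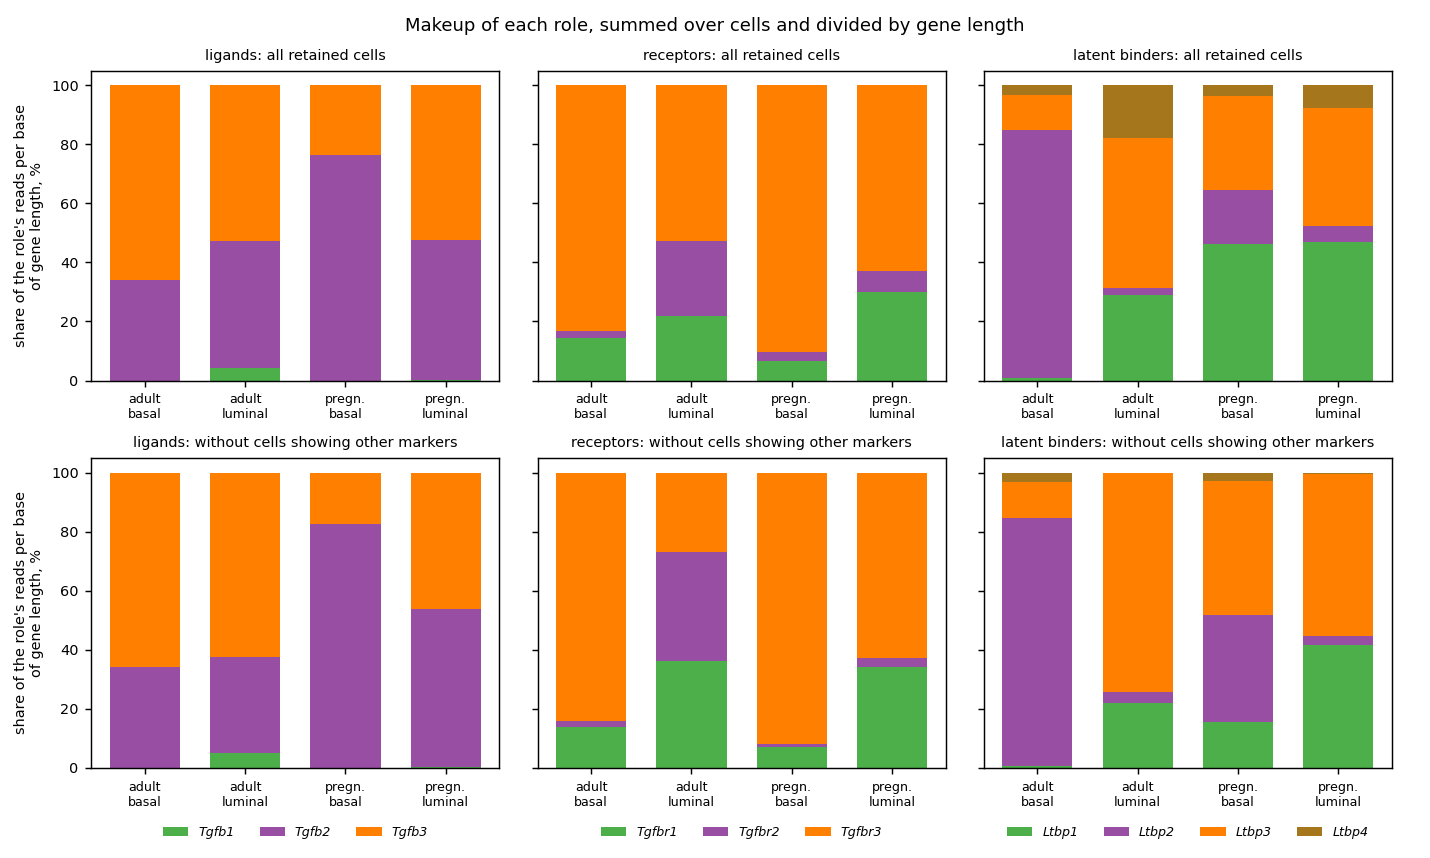
Share of each gene in the summed reads per kilobase of its role (ligands, receptors, latent binders), in percent, for 4 groups, over all cells (top row) and without cells marked for another type (bottom row). The share of Ltbp2 among the latent binders is 84.1% in adult basal cells and 18.2% in the basal class of pregnancy, and Tgfbr3 leads the receptors in all 4 groups of the top row.

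Within the adult luminal cells, 15 held more luminal progenitor than mature luminal markers, 24 the reverse and 2 were tied, with 9 differing by 1 marker. Tgfb2 was at 121 CPM in the first and 9.64 CPM in the second set (log2 ratio 3.65, interval 3.40 to 3.90). Before thinning 7 of 15 and 4 of 24 cells had a read, and after thinning 4 and 2. Without marked cells the levels were 136 and 0.42 CPM, the first resting mainly on cells 22, 25 and 32, at 527, 528 and 660 CPM. Tgfbr3 (462 against 105 CPM) and Ltbp4 (62.6 against 6.57 CPM) also differed, but without marked cells Tgfbr3 was at 76.7 and 73.1 CPM and Ltbp4 at 0 and 0.07 CPM. Tgfb3 was at 58.6 and 28.5 CPM (1.04), and at 82.9 and 31.5 CPM without marked cells. Single cells held most of these Tgfb3 reads. Cell 22 held 61.9% in the first set, which was at 23.3 CPM without it. Cell 35 held 73.0% in the second set, which was at 8.06 CPM without it. Tgfb3 had reads in 8 cells of each set before thinning, and in 4 and 6 after it. Tgfbr1, Tgfbr2, Ltbp1 and Ltbp3 differed by less than 2-fold over all these cells, but without marked cells Ltbp1 was at 56.5 and 20.0 CPM. The 2 cells with Tgfb1 reads were both in the mature set.

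The other genes of the pathway came from 6 lists with 66 genes, of which 63 passed the filter on low values in the adult. There 19 were called higher in basal and 8 higher in luminal cells, with a median log2 ratio of 0.60, where 12.8% of all genes were higher and 21.4% lower. Without marked cells these counts were 24 and 3 of 60, against 2161 higher and 2896 lower of all 14146 genes. Among the activators of latent TGF-beta, 5 of 14 were higher and 2 lower in basal cells. Thbs1 (thrombospondin, which frees the ligand from its propeptide) was at 1361 CPM in basal and 192 CPM in luminal cells (2.82), and the protease Mmp2 had a ratio of 2.67. The integrin subunit Itgb3 (-2.80) and Lrrc32 (-4.39), which displays latent TGF-beta on regulatory T cells and platelets, were lower, on 7 against 102 reads for Lrrc32. A single cell, marked for other types, held 90.2% of the luminal Lrrc32 reads (-1.08 without it), and 1 cell held 68.6% of the luminal Itgb3 reads (-1.17 without it). Neither gene was called without marked cells or with TMM scaling.

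Among the 11 matrix partners, 5 were higher and 3 lower in basal cells, where 12.8% of all genes were higher and 21.4% lower. Fmod (a collagen-binding proteoglycan, 3.97) and Fbn2 (fibrillin, 3.21) were higher, and Fn1 (fibronectin, -6.02) and Dcn (decorin, -4.67) were lower. Dcn and Fn1 are also abundant in fibroblasts, whose markers summed to 848 CPM in adult luminal cells. Without marked cells neither was called, and 7 of 10 matrix partners were higher and 1 lower. Of 11 target genes 5 were higher and 0 lower. Among them Snai2 (a basal transcription factor) had a ratio of 7.54, Ccn2 (a matricellular protein) 2.94 and Ldlrad4 (an inhibitor of SMAD phosphorylation) 1.82. The study's lineage signatures hold Snai2 and 4 matrix genes, Bgn, Fbln1, Fbn1 and Fmod, and their printed list also names the member Tgfb3. These signatures came from earlier published libraries of these lineages, and the paper also names the member Tgfbr3 among basal genes. The direction of these genes between the lineages was therefore known beforehand. For Tgfb3 this holds only if its entry in the list is right.

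The SMADs and their regulators differed less between the adult lineages, with 2 of 14 higher in basal cells, Pmepa1 (1.84) and Ski (1.55), both known to restrain SMAD signalling, and a median of 0.04. Of 8 accessory receptors 1 was higher, the decoy receptor Bambi (1.76). Both shares lie near the 12.8% of all genes called higher in basal cells, where 21.4% were lower. Of 5 activin ligands and antagonists, 3 were lower in basal cells: Inha, with 0 against 259 reads, was at least 124-fold higher in luminal cells with 54.8% of the reads in 1 cell (a log2 bound of -5.86 without it), Inhbb had a ratio of -6.12 and Inhba of -3.25, which was not called without marked cells. Fst (follistatin, which binds activin) was higher, at 443 against 57.2 CPM (2.95).

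In pregnancy, 30 of 62 tested pathway genes were higher and 5 lower in the basal than in the luminal class, with a median of 1.52 where that of all genes was 0.76, and where 21.9% of all genes were higher and 8.41% lower. The 11 matrix partners held 8 higher and 0 lower, with a median of 4.42. Fibroblast markers summed to 2130 CPM in the basal and 368 CPM in the luminal class, and 10 of 35 against 5 of 29 cells were marked. Without marked cells 7 of 10 matrix partners were higher and 0 lower, and 26 of 59 pathway genes were higher and 2 lower. Of all 13117 genes, 2841 were then higher and 1268 lower. Targets went the same way with 7 of 11 higher, among them Ccn2 (617 against 11.1 CPM, 5.80) and Snai2 (7.61), and activators with 8 of 14, among them Thbs1 (3.52). Bgn, with 993 against 0 reads, was at least 550-fold higher in the basal class. Smurf1, a ubiquitin ligase for SMADs and receptors, was lower in the basal class (-3.37).

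Against the adult, the basal class had 11 of 63 pathway genes higher and 3 lower, with a median of 0.06, where 10.6% of all genes were higher and 10.3% lower. Without marked cells 8 of 60 were higher and 10 lower, against 987 higher and 1907 lower of all 13457 genes. Ccn2 (1.58), Thbs1 (1.30), Snai2 (1.25) and Bambi (1.83) were higher, and Fbn2 (-3.04), Smurf1 (-2.52) and Zfyve9 (-3.69), the SMAD anchor, were lower. Fn1 (5.98) and Dcn (4.95) were also higher in that class, in which fibroblast markers summed to 2130 CPM against 6.36 CPM. Without marked cells Fn1 was not called, on 4 reads in the class, and Dcn was still higher (3.64). The luminal class had 5 of 62 higher and 19 lower than adult luminal cells, with a median of -1.02 where that of all genes was -0.99, and where 4.53% of all genes were higher and 29.3% lower. Pmepa1 (-1.90), Ski (-1.35) and Tgm2 (-2.35), a cross-linking enzyme that ties latent complexes to the matrix, were among the lower ones. Smad7 (-2.65) and Skil (-1.50), feedback inhibitors chosen after their values were seen, were lower as well. With TMM scaling the calls of Ski (-0.46), Skil (-0.60) and Pmepa1 (-1.01) were lost and those of Tgm2 and Smad7 were kept. The counts were then 8 higher and 12 lower of 62, against 1277 and 1987 of all 14334 genes.

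The genes whose level followed a member most closely over the 222 cells are given as a description, with Spearman's rho over 5158 genes, since lineage, stage and depth are shared by these cells. Ltbp2 went with the basal keratins Krt17 (0.71) and Krt14 (0.68) and with the tropomyosin Tpm2 (0.69). Tgfbr3 went with the basement membrane and matrix genes Col4a1 (0.63), Sparc (0.63) and Fstl1 (0.61). Tgfb2 reached 0.44 with Chpt1 and 0.40 with the gap junction gene Gjb2, and Ltbp1 0.43 with Cry1, 0.42 with the tight junction gene Cldn3 and 0.41 with Dtx3l. For Tgfb3, Tgfbr1, Tgfbr2 and Ltbp3 no gene reached 0.4. Tgfb1 and Ltbp4 were found in too few cells to be searched.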

How the data were processed

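Per the labels and the study's methods, single cells were captured on a Fluidigm C1 chip, and cDNA was made into Nextera XT libraries and sequenced. The authors aligned reads with Subread 1.4.6 (per the submitters' processing notes, mm10) and assigned them to Entrez genes with featureCounts. The deposited values are raw counts of read pairs (called reads here) per gene and cell, with the gene length, per the file headers, beside them. Counts total 50 to 1402390 per cell. Of 27179 gene IDs, 25275 had a symbol. The 1904 without one (1.20% of reads), 15 mitochondrial (9.54%) and 135 ribosomal genes (1.75%) were left out. No 2 cells held identical counts, and no doublet caller was run, since the study inspected captures by eye.

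Genes with 1 CPM in 3 cells were tested, by the 2-fold rule only. The study's signature lists, less members and pathway genes, placed pregnancy cells at the 10th percentile of the adult reference cells. Cell numbers were taken from titles. TMM factors came from edgeR 4.0.16, and Python 3.11.15 with scipy 1.17.1 did the rest, tested on simulated data. All members are named, with up to 4 genes per list by size in the adult comparison and then in pregnancy. Some items that this rule names are not reported here. The members and lists were chosen with earlier results of these data known. Alternatives were the scaling, weight, filters, thinning, class thresholds and cells left out.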

Additional observations from a re-analysis of the deposited data

Results flagged for a closer look

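Reads of the 10 genes were also present in the cells below 50000 reads, which entered no comparison. The 27 excluded adult basal cells held 366 reads of them, in 16 cells, at 1070 CPM against 2476 CPM in retained cells. The 2 excluded adult luminal cells held 15 reads, in 1 cell, at 352 CPM against 576 CPM. The 27 excluded pregnancy cells held 629 reads, in 21 cells, at 1560 CPM against 1360 CPM. Of these, 93 reads in 10 excluded adult basal cells were of Ltbp2 and 491 reads in 14 excluded pregnancy cells of Tgfbr3. No retained-cell result uses them.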

How the results depend on the processing

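Of 433 alternative log2 ratios of the members, 370 kept their call or their lack of one, 63 gained or lost it and 0 called ratios turned sign. Of 120 alternative shares of cells, 83 stayed within their 95% interval and 37 left it. The adult counts, 3 higher and 3 lower, were equal under each setting but TMM, which gave 3 and 2 with Tgfbr2 lost; without marked cells Ltbp4 took the place of Tgfbr1. For luminal class over adult luminal, members called higher (0) became 2 with TMM, 1 without the leave-out of the top cell, 1 at the 25th percentile, 2 in numbers up to 55 and 1 without the adult luminal cell with 5 or more basal markers, a setting chosen after seeing the data. Those called lower (4) became 2 with TMM, 2 without marked cells (with classes drawn anew or kept, the latter a setting chosen after seeing the data), 2 at the 25th percentile and 1 in numbers up to 55. Between the classes, members lower in the basal class (0) became 1 with TMM, the study's minimums, all assigned reads, no leave-out, the 5th percentile or numbers up to 55, and 2 without marked cells or at the 25th percentile. Those higher (3) became 1 in numbers up to 55 and 5 above 55, and Tgfbr2 dropped out of them with TMM and without marked cells. For basal class over adult basal, the 1 higher became 2 with equal weight or the 5th percentile and 3 without the leave-out. Without marked cells (classes kept) Tgfbr3 took the place of Ltbp1 there, and Tgfb3 joined the lower members. Members found in 20% or more of cells went from 5 to 8 in adult basal cells without thinning, and with 5 or more reads from 6 to 2 in adult luminal and from 8 to 3 in pregnancy cells. Over all genes, TMM turned 650 higher and 4196 lower into 1277 and 1987 for luminal class over adult luminal, 3123 and 1198 into 2005 and 1957 between the classes, and 1919 and 3212 into 2281 and 2727 in the adult. Without the leave-out the adult counts were 3442 and 5168. The cause of these shifts was not tested. No paired analysis was possible because cell numbers do not pair cells of different groups. With 1 sample a group the intervals carry no spread between animals, and at 50000 reads genes of a few CPM are missed in most cells.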
